A study of Mus musculus with 2 samples.

Results

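The cells described here were chosen by a gate on the calprotectin transcripts S100a8 and S100a9 in droplet single-cell RNA data from mouse fetal liver. A barcode was a member when it had at least 1000 genes, at least 2000 UMIs (unique molecular identifiers, the counts of captured transcripts), at most 10% mitochondrial UMIs, and at least 30 UMIs of S100a8 plus S100a9. The gate held 336 of the 14101 barcodes that passed the first 3 criteria, 112 in the knockout library and 224 in the control library. Both libraries held lineage-negative Kit-positive cells of C57BL/6 fetal liver at E14.5, 1 library per genotype, and the cells of both were CD45.2(+) and carried floxed alleles of Brd9 (Brd9fl/fl). The knockout embryos also carried Vav1-iCre, a Cre recombinase driven in blood cells, and the control embryos did not, so no group carried the Cre without the floxed alleles. The embryos came from Brd9fl/fl males and Vav1-iCre Brd9fl/fl females, and the sources used here do not say how many each library pooled. With 1 library per genotype there was no replicate, so no test was made, and every interval covers counting error only.

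S100a8 and S100a9 form calprotectin, an abundant cytosolic protein of neutrophils. Developing neutrophils make their granule proteins in sequence: primary (azurophil) granule enzymes such as myeloperoxidase and elastase at the promyelocyte stage, secondary (specific) granule proteins such as lactoferrin and cathelicidin at the myelocyte stage, and tertiary granule and membrane proteins later. C/EBP epsilon and Gfi1 are transcription factors of that passage. Brd9 belongs to non-canonical BAF, a form of the SWI/SNF family of nucleosome remodellers that also contains Bicra or Bicral, and binds acetylated proteins through a bromodomain.

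The label of a neutrophil lineage was checked on 18 markers that the gate did not use. In each library all 18 had a higher level in the gate than in cells outside it with under 30 UMIs of Mpo plus Prtn3. For Mpo and Prtn3 that choice of cells fixed the outcome. It also left out the cells that resemble the gate most. Against cells outside the gate with at least 30 UMIs of Mpo plus Prtn3, the granulocyte-monocyte progenitors that resemble the gated cells most, 17 of the 17 markers with a value were higher in the knockout gate and 16 of 17 in the control gate. The exception was Mmp8, a late granule collagenase. It was at 0.140 CPM (UMIs of the gene per 1000000 UMIs of the same cells) in the control gate. In those progenitors of the control library it was at 0.387 CPM. The control gate value was 1 UMI in 1 of 224 cells, so the direction for Mmp8 there is uncertain. Cebpe was at 376 CPM in the gate and 80.3 CPM in those progenitors of the knockout library, and at 348 and 72.4 CPM in the control library. Levels of Mmp9, a late gelatinase, were 1.27 and 0.421 CPM in the knockout and control gates, with a UMI in 0.893% and 1.34% of cells. Its direction is thus uncertain too. The gated cells carried markers of neutrophil precursors with few transcripts of late stages.

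The libraries held 7289 and 7399 barcodes with 271350214 and 292972312 UMIs. Gated cells had a median of 27128 knockout and 25993 control UMIs, so their depths were close. Doublets were more common in the gate than outside it. Scrublet marked 17 of 112 knockout cells (15.2%) and 26 of 224 control cells (11.6%), against 3.49% and 3.38% of all kept cells. Transcripts of Xist together with Y-linked genes, at least 3 UMIs each, were in 12 (10.7%) and 11 (4.91%) gated cells, and these cells held 27.8% and 11.6% of the gated UMIs. The sex mix differed too: 46 gated knockout cells were female and 51 male, against 24 and 188 control cells. Female and male cells come from different embryos. Gated cells in neither set, among them those with transcripts of both sexes, are left out of the values within each sex. Values within each sex thus differ from those over the gate by these cells too. Values without doublets and within each sex therefore stand beside the results, and the part of doublets, sex and embryo in them was not tested beyond those values. The libraries shared 16 barcodes, 0 of them gated in both.

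The share of cells in the gate was lower in the knockout. The 112 gated of 7001 knockout cells were 1.60% (Clopper-Pearson 95% interval, 1.32 to 1.92), against 3.15% (2.76 to 3.59) for 224 of 7100 control cells. The ratio of the shares was 0.507 (0.405 to 0.635). As S100a8 and S100a9 chose the members, this share describes the choice. The ratio lay between 0.507 and 0.540 for thresholds from 5 to 1000 UMIs. Near the threshold, 12 knockout and 20 control cells had 20 to 29 UMIs, and 3 and 13 had 30 to 39. Taken over the cells with at least 30 Mpo plus Prtn3 UMIs, 14.6% of 747 knockout and 18.4% of 1203 control cells were in the gate, a ratio of 0.794 (0.644 to 0.980), a denominator added after seeing the data. Among female cells the shares were 1.12% and 1.5%, a ratio of 0.749 (0.459 to 1.22), and among male cells 1.95% and 3.54%, a ratio of 0.553 (0.407 to 0.751). Female and male cells of the control library differed by a ratio of 0.425 (0.279 to 0.647), further from 1 than the genotypes. Genotype and embryo cannot be told apart for this share.

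Within the gate the calprotectin transcripts had similar medians in both libraries, and the highest control cell exceeded the highest knockout cell. A knockout cell had from 34 to 3217 S100a8 plus S100a9 UMIs with a median of 409.5, and a control cell from 31 to 6439 with a median of 346.5. From 30 to 99 UMIs there were 21.4% of knockout and 23.7% of control cells, and at 1000 or more 24.1% and 23.2%. Summed over the gate, S100a8 was at 10101 against 11081 CPM, knockout first, and S100a9 at 9409 against 11184 CPM. Within each sex both were higher in the knockout, S100a8 by 0.13 in female and 0.42 in male cells on the log2 scale and S100a9 by 0.11 and 0.25. The gate held 97.6% and 97.8% of all S100a8 and S100a9 UMIs of the kept cells. In erythroid cells, which should lack it, 8.91% of knockout and 15.5% of control cells had an S100a8 UMI, at median depths of 33679 and 34773 UMIs.

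**Figure D1:**
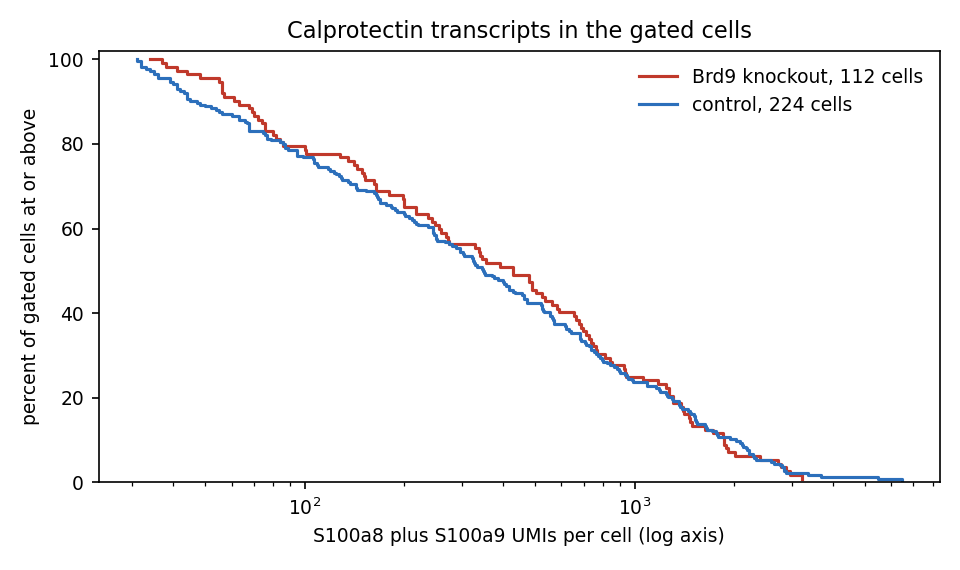
Percent of gated cells (vertical axis) with at least a given number of S100a8 plus S100a9 UMIs (horizontal log axis), 112 knockout cells in red and 224 control cells in blue. The curves run close to each other from 30 to about 1000 UMIs, with medians of 409.5 and 346.5.

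Across the gate, 3508 genes had at least 50 CPM in either library, not counting S100a8 and S100a9. Their median log2 ratio of knockout over control was 0.05, with 5th and 95th percentiles of -0.35 and 0.37. Past a log2 ratio of 1, 28 genes were lower in the knockout (0.798%) and 7 were higher (0.2%). Past 0.5 these were 93 (2.65%) and 71 (2.02%). Of the 28 lower genes, 27 had a ratio below 0 within both female and male cells, 21 were beyond -1 within male and 16 within female cells, and 23 were beyond -1 without doublets by either method. The 7 higher genes included 3 sex-linked ones, Xist and Cybb on the X chromosome and 1 predicted gene on the Y, and the others were Auts2, Lyz2, Pold2 and Zfpm1.

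**Figure D2:**
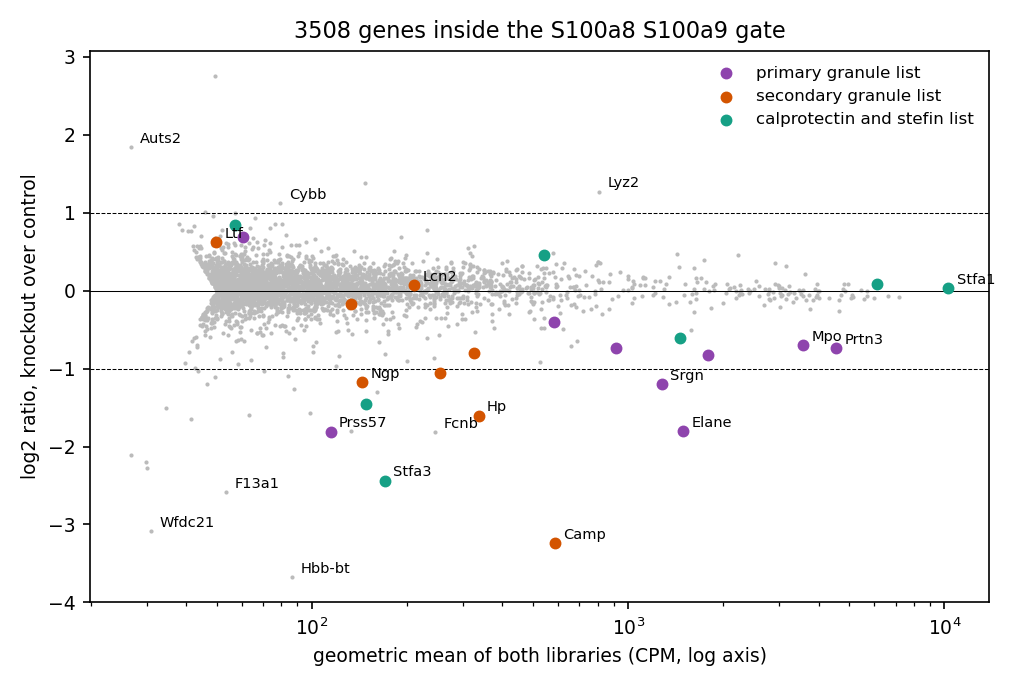
Each point is 1 of 3508 genes in the gate, by its geometric mean level (horizontal log axis, CPM) and its log2 ratio of knockout over control (vertical axis), with dashed lines at 1 and -1. Most points lie between -0.35 and 0.37, with Camp, Stfa3 and Elane far below and Lyz2 above.

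Primary granule genes were lower in the knockout gate, with elastase the furthest down of the abundant ones. Of the 10 listed genes 9 passed the minimum level. Below 0 were 8, against 38.6% of all genes tested. Beyond -0.5 were 7, against 2.65%, and beyond -1 were 3, against 0.798%. The median over the 9 was -0.73. Elane, neutrophil elastase, had a median of 22 UMIs per knockout cell (0 to 144) and 77 per control cell (0 to 348). Its summed level was 799 against 2785 CPM, a log2 ratio of -1.80 (-1.86 to -1.75), or 3.49-fold lower. The knockout values were low over most of the distribution, though the ranges overlapped. Interquartile ranges were 295 to 1369 CPM per knockout cell and 1536 to 4612 CPM per control cell.

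Prss57, a serine protease stored with elastase, was at 61.3 against 215 CPM (-1.81), and Srgn, the proteoglycan serglycin that packs granule proteases, at 843 against 1934 CPM (-1.20). The other major enzymes differed less. Mpo, myeloperoxidase, was at 2800 against 4550 CPM (-0.70), Prtn3, proteinase 3, at 3516 against 5845 CPM (-0.73) and Ctsg, cathepsin G, at 1344 against 2390 CPM (-0.83). Ms4a3, a membrane protein of granulocyte-monocyte progenitors, gave -0.73, and Cd63, a granule membrane tetraspanin, -0.41. Ctsc, cathepsin C, which activates the granule proteases, went the other way at 76.8 against 47.6 CPM (0.69).

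Within each sex, which also leaves out cells with transcripts of both sexes, the differences of this list were smaller. Elane and Prss57 stayed beyond -1 in both sexes. Over all gated knockout cells Elane was at 799 CPM, below its level in either sex. The list's median was -0.46 within male and -0.26 within female cells, and -0.57 without doublets. Control female over control male cells gave a median of -0.50, further from 0 than the genotypes gave within either sex. Elane gave -1.66 within male and -1.08 within female cells, with 1023 and 1015 CPM in knockout male and female cells and 3227 and 2138 CPM in the control. Prss57 gave -1.46 and -1.19, and Srgn -1.11 and -0.64. Prtn3 gave -0.46 and -0.12, while control female and male cells differed by -0.51 on the same scale. In the Mpo Prtn3 cells outside the gate, Elane was at 160 against 303 CPM (-0.92) and Prtn3 at 1695 against 1799 CPM (-0.09).

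Secondary granule genes split. Of 12 listed genes 8 passed the minimum level, 6 were below 0, against 38.6% of all genes tested, and 4 beyond -1, against 0.798%, with a median of -0.92. Camp, the cathelicidin antimicrobial peptide, was far lower in the knockout, while Ltf, lactoferrin, and Lcn2, the siderophore-binding lipocalin, were not lower. Camp (chr9:109847379-109849617, minus strand, GENCODE M21 on mm10) was at 190 against 1802 CPM, a log2 ratio of -3.24 (-3.35 to -3.14), or 9.46-fold lower. A UMI of Camp was found in 37 of 112 knockout cells, or 33.0% (24.4 to 42.6), and in 122 of 224 control cells, or 54.5% (47.7 to 61.1), against 3.17% and 3.86% of erythroid cells. At least 10 UMIs were in 7 of 112 knockout and 68 of 224 control cells. Thinned to 16032 UMIs per cell, which left out 7 knockout and 10 control cells, 21.9% and 46.3% had a UMI. A single knockout cell held 38.5% of that library's Camp UMIs in the gate, and without the top cell of each library the ratio was -3.87. It was -4.44 within female and -2.22 within male cells, and -3.01 without doublets.

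Lcn2 was at 215 against 205 CPM, a log2 ratio of 0.07 (-0.05 to 0.19), with a UMI in 52.7% and 42.4% of cells, against 0% of 819 and 0.568% of 880 erythroid cells, where the count of 0 allows up to 0.366%. Within male cells it was higher in the knockout, at 426 against 243 CPM (0.81). Ltf was at 62.0 against 40.1 CPM (0.63), carried by few cells: 10.7% and 8.48% had a UMI, 1 knockout cell held 59.0% of the UMIs, and the ratio was 0.10 without the top cells. Ngp, neutrophilic granule protein, was at 96.1 against 217 CPM (-1.17), also with 62.2% of the knockout UMIs in 1 cell. Its ratio was -2.16 once the top cells were left out, -0.90 within female and -0.18 within male cells. Hp, haptoglobin, was at 193 against 587 CPM (-1.60), in nearly every cell: 96.4% and 99.6% had a UMI, against 0.733% and 1.93% of erythroid cells. Olfm4, olfactomedin 4 of a neutrophil subset, was at 176 against 366 CPM (-1.05), Pglyrp1, a peptidoglycan recognition protein, at 247 against 428 CPM (-0.79), and Slpi, a leukocyte protease inhibitor, at 125 against 141 CPM (-0.18).

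The list's median was -0.26 within male and -0.42 within female cells and -0.72 without doublets, each nearer to 0 than the value over all gated cells, and control female over control male cells gave -0.79. Members kept different places within it: Camp and Hp were below -1 in both sexes, and Ltf, Lcn2 and Slpi were above 0 in both.

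C/EBP factors act on granule gene promoters, so the 250 bases before the start of the 4 secondary granule genes used for staging are shown, from RefSeq on GRCm38.p6 (mm10), each 5′ to 3′ on the gene's own strand. Capitals mark matches to TTGCNNAA on either strand, a C/EBP-type motif; the search for it is a description and no match says only that these letters are not in this window. The window of Camp lies at chr9:109849457-109849706 (minus), Ngp at chr9:110419558-110419807 (plus), Ltf at chr9:111019042-111019291 (plus) and Lcn2 at chr2:32387740-32387989 (minus). RefSeq and GENCODE M21 place the starts differently: of the 250 bases, 161 in Camp, 61 in Ngp, 21 in Ltf and all 250 in Lcn2 lie inside the GENCODE gene, so these windows are not all upstream of the gene by that annotation.
Camp: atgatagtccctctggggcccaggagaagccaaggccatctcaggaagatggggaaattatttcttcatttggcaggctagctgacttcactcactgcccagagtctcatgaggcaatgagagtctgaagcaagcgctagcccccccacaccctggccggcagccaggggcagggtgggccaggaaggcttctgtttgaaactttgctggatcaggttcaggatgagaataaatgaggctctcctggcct
Ngp: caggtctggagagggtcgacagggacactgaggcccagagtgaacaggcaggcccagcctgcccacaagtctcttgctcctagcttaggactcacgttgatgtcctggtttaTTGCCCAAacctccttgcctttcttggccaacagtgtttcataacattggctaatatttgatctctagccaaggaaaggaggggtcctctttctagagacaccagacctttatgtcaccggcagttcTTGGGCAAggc
Ltf: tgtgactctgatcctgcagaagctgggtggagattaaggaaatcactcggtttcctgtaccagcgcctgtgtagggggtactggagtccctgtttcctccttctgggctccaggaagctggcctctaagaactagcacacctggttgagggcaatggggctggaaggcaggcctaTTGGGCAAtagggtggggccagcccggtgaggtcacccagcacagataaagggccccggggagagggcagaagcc
Lcn2: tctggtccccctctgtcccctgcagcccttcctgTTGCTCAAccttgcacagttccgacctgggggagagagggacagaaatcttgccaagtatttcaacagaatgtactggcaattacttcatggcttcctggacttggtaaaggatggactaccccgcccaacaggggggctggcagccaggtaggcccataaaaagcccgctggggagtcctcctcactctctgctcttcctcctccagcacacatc
The Ngp window held 2 matches, Ltf and Lcn2 1 each, and Camp 0, while 9.55% of 27025 listed promoters of the same length held one. The first letter of the match lay 138 and 11 bases before the start in Ngp, 75 in Ltf and 216 in Lcn2. Fcnb held 2 and S100a9 1, and S100a8, Elane, Mpo, Prtn3, Ctsg, Stfa3, Cybb and Lyz2 held 0. Genes with a match were thus found both among those lower in the knockout and among those that were not.

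Staged by secondary granule transcripts, fewer gated cells of the knockout stood at the top stage. With the UMIs of Ltf, Camp, Ngp and Lcn2 summed per cell, 30 or more were reached by 11 of 112 cells in the knockout (9.82%, 5.01 to 16.9). In the control 53 of 224 cells reached them (23.7%, 18.3 to 29.8), and the ratio of shares was 0.415 (0.226 to 0.763). From 3 to 29 UMIs there were 28.6% and 18.3%, and from 0 to 2 there were 61.6% and 58.0%. Thinned to equal depth the top stage held 6.67% and 18.2%, a ratio of 0.366. Within female cells it held 3 of 46 and 5 of 24, and within male cells 7 of 51 and 47 of 188.

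Without Camp, and with a lower sum required, the ratio was not below 1. Leaving out Camp and lowering the sum were not separated. On Ltf, Ngp and Lcn2 alone, a sum chosen after seeing the data, 17 of 112 knockout cells (15.2%) and 30 of 224 control cells (13.4%) had at least 10 UMIs, a ratio of 1.13 (0.654 to 1.96). In these cells Camp had a median of 4 UMIs per knockout cell (0 to 288) and 300.5 per control cell (0 to 676). At least 10 Camp UMIs were in 6 of the 17 knockout and 29 of the 30 control cells. Among cells with 0 to 2 UMIs of the other 3 genes, 1 of 74 knockout and 26 of 172 control cells had at least 10 Camp UMIs. Control cells with Camp and 0 to 2 UMIs of the other 3 transcripts were thus present. Knockout cells with at least 10 UMIs of the other 3 summed and fewer than 10 of Camp were present too. In those knockout cells Lcn2 had the most UMIs of the 3, as in a cell with 2 Ltf, 0 Ngp and 83 Lcn2 UMIs. Some of these cells did hold all 3 transcripts. One had 65 Ltf, 49 Ngp and 104 Lcn2 UMIs with 8 of Camp. Another had 5 Ltf, 8 Ngp and 30 Lcn2 UMIs with 1 of Camp. The rest of them lacked UMIs of Ltf, Ngp or both.

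**Figure D3:**
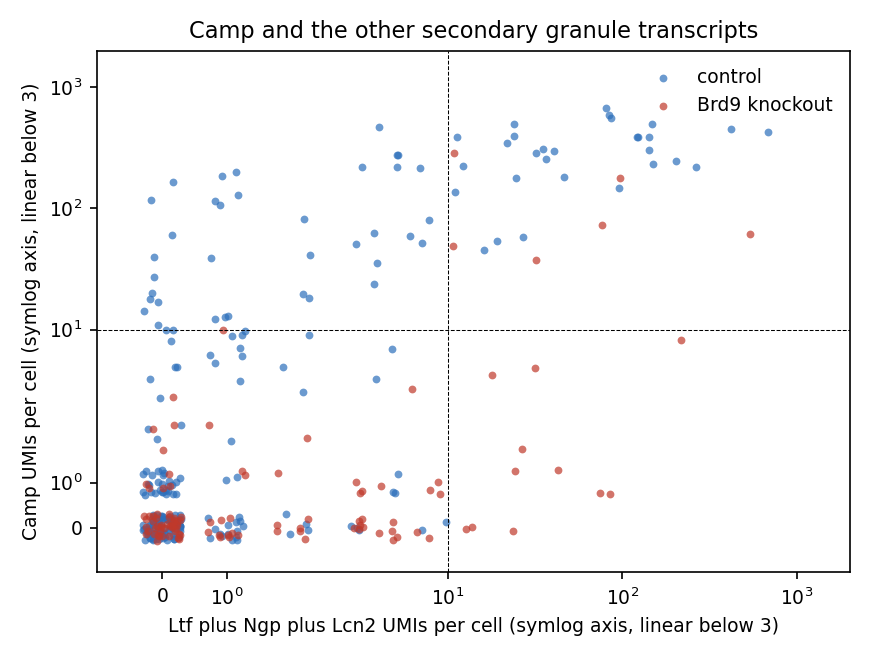
Each point is 1 gated cell, by its UMIs of Ltf plus Ngp plus Lcn2 (horizontal axis) and of Camp (vertical axis), on axes that are linear below 3 and logarithmic above, with a small random shift to separate points and dashed lines at 10. Right of the vertical line 29 of 30 control cells (blue) and 6 of 17 knockout cells (red) lie at or above 10 Camp UMIs.

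The primary granule stage differed less by share and more by amount. The sum of Mpo, Elane, Prtn3 and Ctsg reached 100 UMIs in 98 of 112 cells in the knockout (87.5%, 79.9 to 93.0). It did so in 217 of 224 cells in the control (96.9%, 93.7 to 98.7), and the ratio of shares was 0.903 (0.839 to 0.972). Medians of the sum were 314 knockout and 494 control UMIs. At equal depth 74.3% and 93.0% reached 100 UMIs, and the medians were 167 and 295.5. Cells with a sum of 10 to 99 made up 9.82% and 2.23%.

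Compared at matched calprotectin content, Elane and Fcnb were lower in the knockout at every level. Camp was lower too, on few knockout UMIs in the lower ranges. Doublets were unevenly spread over the ranges, with 11 of 24 knockout and 9 of 53 control cells marked by either method in the lowest and 1 of 27 and 3 of 52 in the highest. Elane gave -1.64, -1.15, -2.33 and -1.85 from the lowest to the highest of 4 ranges of S100a8 plus S100a9 UMIs (from 30, 100, 300 and 1000 UMIs up). Camp gave -2.0 and -3.86 (-5.51 to -2.61) in the lower ranges, on 4 and 5 knockout UMIs. It gave -0.90 in the next, where 1 knockout cell held 93.2% of the knockout UMIs. In the highest it gave -4.04 (-4.18 to -3.90), at 553 against 9103 CPM. Without doublets, a setting added after seeing the data, Elane gave -0.90, -1.11, -2.13 and -1.94 over the 4 ranges. Fcnb then lay between -1.44 and -2.46. Camp then gave -1.01, -3.37, -0.61 and -4.33 from the lowest to the highest range. In the lowest range this rested on 3 knockout UMIs, with an interval from -3.39 to 0.72. In the highest range 10 of 27 knockout and 44 of 52 control cells had 30 or more secondary granule UMIs. Lcn2 there was at 958 against 1085 CPM (-0.18) and Ltf at 312 against 223 CPM (0.49). Stfa3 gave -3.23 in the highest range and 0.19 in the range below it.

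**Figure D4:**
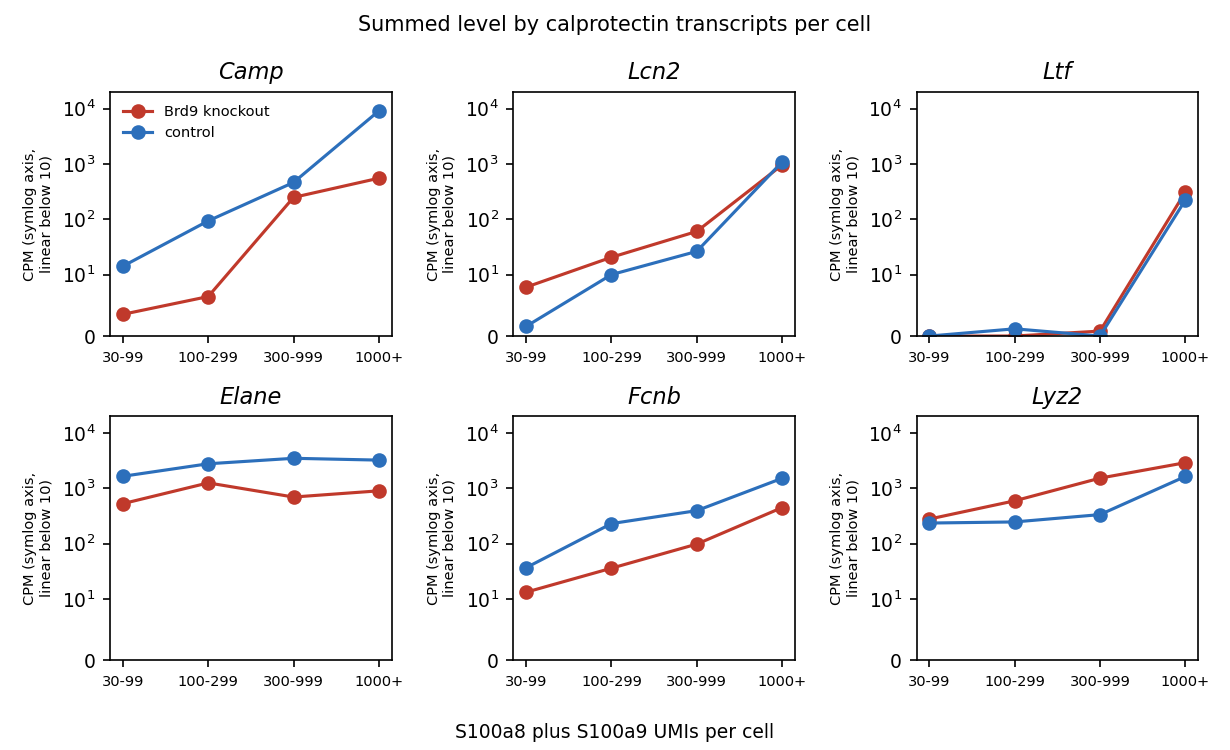
Summed level (CPM, symlog axes) of 6 genes in 4 ranges of S100a8 plus S100a9 UMIs per cell, knockout in red and control in blue, with no error bars. Camp at 1000 or more UMIs is at 553 against 9103 CPM, while Lcn2 is at 958 against 1085 CPM.

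Tertiary granule and membrane genes went both ways. Of 8 listed genes 4 passed the minimum level. Fcnb, ficolin B, a lectin of granulocyte precursors, had a median of 1 UMI per knockout cell (0 to 43) and 8 per control cell (0 to 119), and was at 131 against 461 CPM (-1.82). Its ratio was -1.78 within female and -1.04 within male cells. Cybb, the gp91phox subunit of the phagocyte oxidase, was higher, at 117 against 53.9 CPM (1.12, 0.93 to 1.32), with 0.62 within female and 1.78 within male cells. A Cybb UMI was in 73.2% of knockout and 48.7% of control cells, against 0.855% and 0.455% of erythroid cells. Cyba, its partner subunit, gave -0.21, and Itgam, the CD11b integrin chain, 0.17. Ncf1, a cytosolic subunit of the oxidase, gave 0.16.

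Lyz2, lysozyme of neutrophils and monocytes, was among the genes furthest up. It had a median of 22 UMIs per knockout cell (0 to 249) and 8 per control cell (0 to 210), and was at 1258 against 521 CPM (1.27, 1.21 to 1.33). The knockout cells were higher in both sexes, by 0.65 in female and 1.97 in male cells, and the distributions overlapped. In the Mpo Prtn3 cells outside the gate Lyz2 was at 196 against 191 CPM (0.04) and Cybb at 15.3 against 17.2 CPM (-0.17). The difference between the gate and those cells was not tested. Monocyte markers stood beside it as follows: of 12 listed, 2 passed the minimum level, F13a1 and Ly6c2, both lower in the knockout, and the summed list was at 160 against 260 CPM. Without F13a1, a sum added after seeing the data, the other 11 were at 138 against 129 CPM. Irf8, a transcription factor of monocytes chosen after its values were seen, was at 37.9 against 18.0 CPM and had at least 10 UMIs in 8 knockout and 5 control cells, with -0.45 within female and 2.45 within male cells. The part of such cells in the Lyz2 and Cybb values was not tested.

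The stefins are cysteine protease inhibitors encoded in a cluster of near-identical genes on chromosome 16, and reads could be split among copies, so single members are uncertain. Of 9 listed genes found, 7 passed the minimum level, 3 below and 4 above 0, with a median of 0.04. Over all genes tested 38.6% were below 0, with a median of 0.05. Stfa1 was at 10405 against 10150 CPM (0.04) and Cstdc5 at 6298 against 5925 CPM (0.09). The list's median was 0.55 within male cells, 0.31 within female cells and 0.28 without doublets, further above 0 than over all gated cells. Stfa1 gave 0.55 within male and 0.31 within female cells, and Cstdc5 0.62 and 0.47. Stfa3 was at 73.2 against 397 CPM (-2.44), with at least 10 UMIs in 8 knockout and 38 control cells. Stfa2l1 was at 89.2 against 245 CPM (-1.46), Cstdc4 at 1179 against 1800 CPM (-0.61, but 0.05 within male cells) and Stfa2 at 76.3 against 42.7 CPM (0.84). Stfa3 was lower in both sexes (-2.26 and -1.71) and Stfa2 higher in both (1.45 and 1.47). Anxa1, annexin A1, an inflammation-limiting protein of neutrophils, was at 634 against 462 CPM (0.46).

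**Figure D5:**
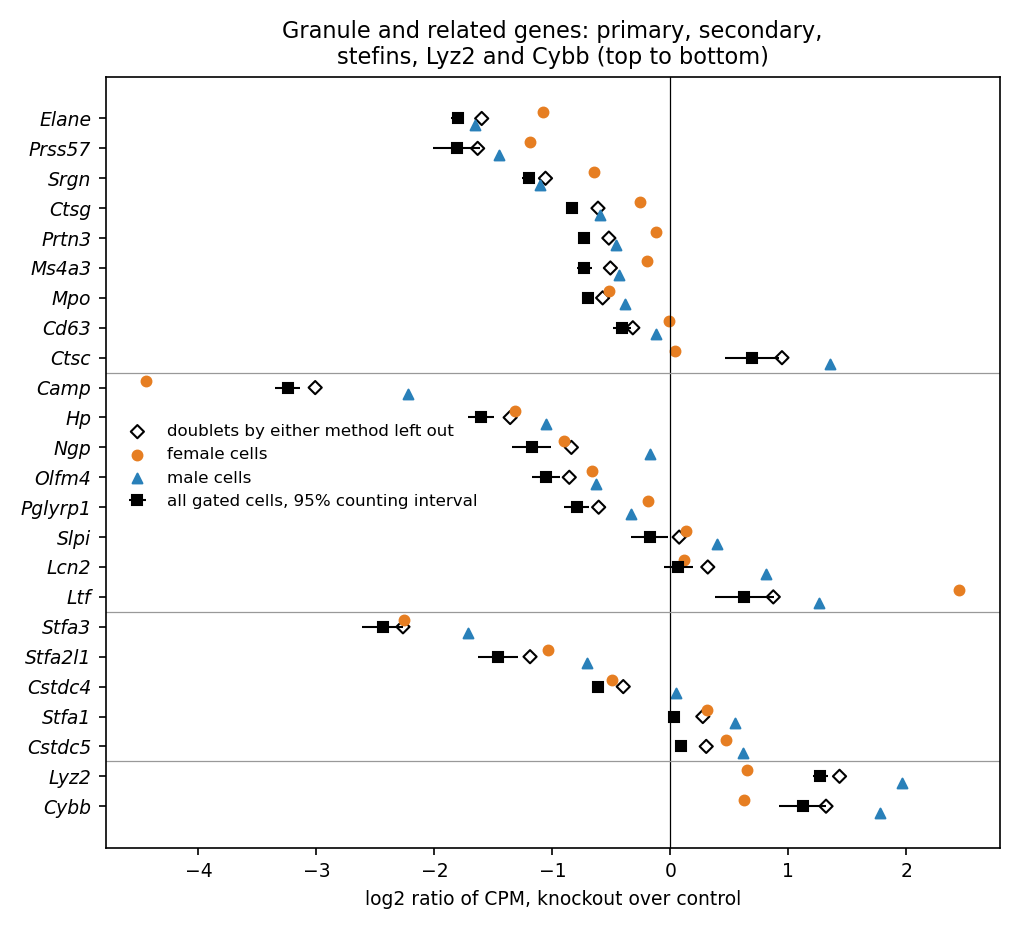
Log2 ratio of knockout over control (horizontal axis) for 24 granule and related genes, over all gated cells with 95% counting intervals (squares), without doublets (diamonds), and within female (orange) and male (blue) cells. Camp, Elane, Prss57, Hp and Stfa3 lie left of -1 in every set, and Lyz2, Cybb and Ltf right of 0 in every set.

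Transcripts of late neutrophils were rare. Mmp8 or Cd177, a neutrophil surface protein, had UMIs in 8 knockout cells, 3 of them with at least 3, and in 2 control cells, 0 of them with 3. Of the 39 knockout UMIs 24 were in 1 cell, which had 65 Ltf, 104 Lcn2 and 8 Camp UMIs. Wfdc21, a whey acidic protein-domain gene, was at 10.7 against 90.5 CPM (-3.08) and was lower in both sexes (-2.87 and -2.54). Csf3r, the G-CSF receptor, was at 43.5 against 63.3 CPM (-0.54).

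Transcription factors of the lineage differed little. Of 26 listed, 12 passed the minimum level, with a median of -0.10, against 0.05 over all genes tested. Of the 12, 9 were below 0 and 3 above, while 38.6% of all genes tested were below 0. Beyond 1 in either direction were 0, against 0.798% lower and 0.2% higher over all genes tested. Cebpe had a median of 11.5 UMIs per knockout cell (0 to 45) and 10 per control cell (1 to 41), and was at 376 against 348 CPM (0.11, 0.02 to 0.20). Spi1, which encodes PU.1, was at 290 against 288 CPM (0.01), Cebpb gave -0.12 and Cebpd -0.26. Gfi1, a repressor required for neutrophil maturation, was the furthest down at 47.0 against 87.1 CPM (-0.89, -1.13 to -0.65), with -0.26 within female and -0.66 within male cells. In the Mpo Prtn3 cells outside the gate Gfi1 was at 8.51 against 19.6 CPM (-1.20).

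Receptors and adhesion genes showed no common direction, with 5 of 9 tested below 0 and a median of -0.07. Over all genes tested 38.6% were below 0, with a median of 0.05. Kit, the receptor used in the sort, was at 50.6 against 70.0 CPM (-0.47), with 0.01 within female and -0.88 within male cells. Ifngr1, an interferon gamma receptor chain, was at 147 against 274 CPM (-0.90), and Cd34, a progenitor sialomucin, at 87.7 against 61.3 CPM (0.52).

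Brd9 itself was at 12.5 against 38.4 CPM, a log2 ratio of -1.63 (-2.10 to -1.18), with -1.14 within female and -1.78 within male cells. A Brd9 UMI was in 34.8% of knockout and 67.9% of control cells. The tags come from the 3′ end and may lie outside the floxed exons, so they do not show whether the protein was made. Bicra was at 38.1 against 24.8 CPM (0.62, 0.30 to 0.94) and Bicral at 37.6 against 26.1 CPM (0.53, 0.21 to 0.85), both above 0 in each sex. Of 24 other listed BAF subunits 15 passed the minimum level, with a median of 0.09. Of these 0 were beyond 0.5, against 2.65% lower and 2.02% higher over all genes tested.

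Other genes with the lowest ratios were mostly not granule genes of neutrophils. F13a1, which encodes the A subunit of factor XIII and is made by monocytic cells, was at 21.9 against 131 CPM (-2.58), and in the Mpo Prtn3 cells outside the gate at 46.3 against 203 CPM (-2.13). Nkg7, a membrane protein of cytotoxic granules, was at 70.9 against 248 CPM (-1.81), with a median of 1 UMI per knockout and 7 per control cell. Apoc1, an apolipoprotein, gave -2.20, and Apoe, its neighbour, -1.29. Each of these 4 was below 0 in both sexes, and F13a1, Apoc1 and Apoe were beyond -1 in the progenitors outside the gate too, where Nkg7 gave -0.22. Prg3 and Prg2, granule proteins of eosinophils, gave -2.10 and -1.5, the first only -0.50 with a gate of 20 UMIs, with 44.0% of the control Prg2 UMIs and 53.1% of the knockout ones in 1 cell. Epx, eosinophil peroxidase, had UMIs in 1 control cell and in 0 of 112 knockout cells, which allows a share of up to 2.68% with a UMI.

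Hbb-bt, an adult beta globin gene near-identical to Hbb-bs, had the lowest ratio of all, at 24.2 against 309 CPM (-3.68). In kept cells outside both the gate and the Mpo Prtn3 cells Hbb-bt was also lower, at 321 against 1286 CPM. In the gate 5 control cells held 64.4% of its control UMIs. Without doublets it was at 15.6 against 48.8 CPM (-1.65) in the gate. Over the erythroid list 9 of 12 genes passed the minimum level, with 3 below 0, against 38.6% of all genes tested, and 6 above. The list's median was 0.23. That median was 0.69 without doublets but -0.68 within male and -0.61 within female cells, and control female over control male cells gave 2.07.

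Among the highest, Auts2, a nuclear regulator studied in neurons, was at 50.8 against 14.2 CPM (1.84), and Morrbid, a long noncoding RNA of short-lived myeloid cells, at 103 against 57.0 CPM (0.86). Pold2, a DNA polymerase delta subunit, was at 65.1 against 32.3 CPM (1.01). Rgs10 gave 0.93 and Ipcef1 0.85, with 0.03 and 0.17 within female cells. Zfpm1, Pvt1, Chchd10 and Ssx2ip gave 1.0, 0.96, 0.86 and 0.83 over all gated cells but -0.33, -0.41, -0.02 and -0.60 within male cells. Within female cells they gave 0.48, 0.91, 0.71 and 0.53, and without doublets 1.96, 1.79, 0.48 and 0.83, with Zfpm1 then at 25.7 against 6.60 CPM.

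Most genes of division and of glycolysis were above 0, as were 61.4% of all genes tested. Of 21 tested G2 and mitosis genes 20 were above 0, with a median of 0.19, against 0.05 over all genes, and of 20 S phase genes 14 were, a share near that of all genes, with a median of 0.11. The G2 and mitosis median was 0.17 within male and 0.04 within female cells, and control female over control male cells gave 0.28. Of 12 glycolysis genes 11 were above 0, with a median of 0.26, and Gapdh at 1780 against 1456 CPM (0.29) and Aldoa at 709 against 553 CPM (0.36) were each above 0 in both sexes. In the Mpo Prtn3 cells outside the gate the glycolysis median was 0.09.

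Marker lists of other cell types, apart from the erythroid one, had at most 2 genes past the minimum level in the gate. The erythroid list summed to 1532 and 1639 CPM. Hba-a1, an alpha globin gene, was at 348 and 285 CPM, with a UMI in 62.5% and 50.9% of gated cells. In kept cells outside both the gate and the Mpo Prtn3 cells it was at 1501 and 1332 CPM. Of 12 macrophage genes 0 passed the minimum level, with C1qa, C1qc, Cd5l and Marco at 0 in both libraries and a summed level of 36.4 and 39.3 CPM. The megakaryocyte, lymphoid and hepatocyte lists also had 0 genes past the minimum, with summed levels under 25 CPM in each library. The mast and basophil list had Hdc past it, at a list sum of 133 and 161 CPM, and the stem and multipotent list had Cd34, at 224 and 180 CPM. The monocyte list summed to 160 and 260 CPM and the eosinophil list to 50.6 and 152 CPM. Cd34, F13a1 and Irf8 were lower in the gate than in the Mpo Prtn3 cells, in each library. They were higher than in kept cells outside both, where Cd34 was at 15.2 and 10.3 CPM against 87.7 and 61.3 CPM in the gate.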

How the data were processed

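Droplet libraries of lineage-negative Kit-positive fetal liver cells used 10x Genomics 3′ v3.1 chemistry, per the labels' protocols. Cell Ranger 7.2.0 and mm10 were used by the authors, per the submitters' processing notes, and the deposited values are whole-number UMI counts per gene and barcode without normalization. The use of intronic reads was not stated. The members and lists were chosen with earlier results of these data known.

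Counts were summed over the gated cells of each library and scaled to 1000000 UMIs of the same cells (CPM). Log2 ratios have exact conditional 95% intervals of 2 Poisson counts, shares have Clopper-Pearson intervals, and ratios of shares have log-normal intervals. PCR duplicates were collapsed by UMI, and intervals cover counting error only. Where a count was 0, 0.5 was added to both. Compared were genes at 50 CPM or more in at least 1 library. Named were the 12 lowest and 12 highest by the weaker of the ratios with and without each library's top cell (leaving out sex-linked Xist and Y genes, mitochondrial, ribosomal and predicted genes), the staging genes, Brd9, Bicra, Bicral and Kit, and up to 6 members of each of 24 lists by level; other genes were named after their values were seen, and some genes that the rule named are not reported here. Cells with 3 or more Xist UMIs and no more than 1 UMI of 4 Y-linked genes were taken as female, and cells with no more than 1 Xist UMI as male. Erythroid cells had at least 1% globin UMIs. Doublets were marked by Scrublet in scanpy 1.11.5 at an expected rate of 6% and kept, with values without them given. Equal depth was the 5th percentile of gated cells. Coordinates came from GENCODE M21, which held 32158 of 32285 gene identifiers, and promoters from RefSeq. The scripts (Python 3.11.15, numpy 2.4.6, scipy 1.17.1) were tested on simulated data. Alternatives covered gates, cell filters, scaling, level minimums, doublets and sexes.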

Additional observations from a re-analysis of the deposited data

How the results depend on the processing

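No paired analysis was possible because each genotype had 1 library and the labels give no replicate numbers. For the same reason no library could be left out. Of 122 recomputed values of the main results, 94 stayed within the counting interval (or, for gene counts, within 1.5 times) of the value reported, 27 moved and 1 reversed. Of the 12 named genes with the lowest ratios, 12 stayed below 0 and 11 beyond -1 under every alternative computed for them, the exception being Prg3 (-0.15 with a gate set relative to depth).

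The primary granule median (-0.73) was -0.70 and -0.69 with gates of 20 and 100 UMIs, -0.63 with a gate set relative to each cell's depth, -0.62 without Scrublet doublets, -0.56 without cells of both sexes, -0.57 without either (added after seeing the data), -0.26 in female cells, -0.46 in male cells and -0.63 as a mean over cells. The secondary granule median (-0.92) was -0.80, -0.78, -0.70, -0.72, -0.42 and -0.26 under the relative gate, the 3 doublet settings and the female and male cells, -1.05 with a minimum of 100 CPM and -0.79 without Camp, also added later. The count of higher genes (7) was 14 and 15 without Scrublet doublets and without doublets of either kind, 18 in female and 21 in male cells, 24 with a minimum of 20 CPM and 4 with 100 CPM. The gate ratio (0.507) was 0.749 in female cells and, over a denominator added later, 0.794 among Mpo Prtn3 cells. The share ratio at 100 primary granule UMIs (0.903) was 0.799 at equal depth, Brd9 gave -1.14 in female cells, and Zfpm1 reversed to -0.33 in male cells. The secondary stage ratio (0.415) was counted as reversed at 1.13 without Camp, with an interval (0.654 to 1.96) that includes 1. That setting, added after seeing the data, also lowered the sum required from 30 to 10 UMIs. Leaving out Camp and lowering the sum were not separated, so the reversal cannot be assigned to Camp. For these shifts the cause was not tested. Intervals cover counting in 112 and 224 cells of 1 library each, so the spread between embryos is unknown.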
